A study of Caenorhabditis elegans with 16 samples.

Results

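The 4 genes described here are those that the strains of the study carried as mutants, namely hrde-1, met-2, set-25 and set-32 of Caenorhabditis elegans. They were followed through the 25 consecutive 1000 bp bins that cover them in a genome-wide table of 100257 bins, 5 bins for hrde-1, 6 for met-2, 11 for set-25 and 3 for set-32. The bins were taken by position, while the 4 genes were chosen with earlier results of these data known. The question was which stretch of each gene lost small RNA in the libraries that carried its own mutation, and whether small RNA over the gene moved with the mutations of the other genes. Small RNA was cloned from young adult hermaphrodites by a procedure that does not need a 5′ monophosphate, so that products of RNA-dependent RNA polymerases are taken in. The values are RPKM, read numbers scaled to bin length and to library size.

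Each of the 16 libraries combined 1 of 4 backgrounds with 1 of 4 states of hrde-1. The backgrounds were met-2(n4256) set-25(n5021), a strain with both mutations that is called met-2 set-25 here, then set-32(ok1457), set-32(red11) and wild type. In each background hrde-1 was mutant, hrde-1(tm1200), was repaired and written hrde-1(+R), or had never been mutant. The repaired animals were taken early, at F5 (F8 in set-32(ok1457)), and again at F20. Libraries without hrde-1(tm1200) in the wild-type background were the 2 repaired ones and N2, the wild-type strain. Each mutation was therefore present in 4 libraries. The mutations met-2(n4256) and set-25(n5021) occurred only together, so what either gene's product does to other loci cannot be told apart. The labels name the alleles and do not say which bases each of them changes, and no genotype had a replicate library. Library names began with SG0717 in 12 libraries, with SG0315 in hrde-1(tm1200) and in the met-2 set-25 strains mutant or never mutant for hrde-1, and with SG1116 in N2, and the labels do not say what these prefixes stand for.

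Secondary small interfering RNAs (siRNAs) of C. elegans are copied from target transcripts by RNA-dependent RNA polymerases, and Argonaute proteins bind them. HRDE-1 is the nuclear Argonaute of the germline that carries such siRNAs and sustains silencing from parent to progeny. MET-2 and SET-25 are histone methyltransferases that modify lysine 9 of histone H3, MET-2 adding the first methyl groups and SET-25 able to complete the trimethylated form. SET-32 is another SET-domain protein, which acts with HRDE-1 at loci silenced by nuclear RNAi.

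The genes differ in length and in how much of each bin is transcribed exon. In the WBcel235 annotation hrde-1 (WBGene00007624) lies at III:4172337-4176159 on the minus strand and has 7 exons coding for 1032 residues. The gene met-2 (WBGene00019883) lies at III:8375300-8380848 on the plus strand and has 9 exons coding for 1304 residues. The longest of them, set-25 (WBGene00012802), lies at III:13283824-13293090 on the minus strand, with 8 exons coding for 714 residues. The shortest, set-32 (WBGene00008062), lies at I:9519244-9521275 on the plus strand, with 7 exons coding for 517 residues. The build of the deposited bins is not given in the sources used here. In 201 bins around each gene, the RPKM values matched the WBcel235 exons best with no shift, with correlations of 0.75, 0.74, 0.41 and 0.67 across bins for hrde-1, met-2, set-25 and set-32. The next best shift within 8 kb gave 0.54, 0.63, 0.23 and 0.50.

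Depth sets what a bin can show. In units of 1000, a library held an estimated 143 to 500 reads in its bins, and a single read in a bin was worth an estimated 1.45 to 6.30 RPKM (median 2.45). A bin listed at 0 can still hold a low level, since 3 reads correspond to 18.9 RPKM in the shallowest library, met-2 set-25 F5, and to 4.35 RPKM in N2. In 5 libraries the table summed to 90.0 to 96.7% of a full per-million total, against 67.7 to 80.5% in the other 11. The 5 were met-2 set-25 F5, the never mutant libraries of both set-32 alleles and their hrde-1(tm1200) derivatives. Over these 5 libraries the small RNA of the 8 intestine marker genes summed to 138 to 616 RPKM and that of the 4 hypodermis genes to 0.0200 to 20.3 RPKM, against 4414 to 12429 and 115 to 417 RPKM in the other 11. The 4 muscle genes summed to 46.0 to 273 RPKM in the 5 and to 354 to 1533 RPKM in the 11, and the 8 germline genes to 1087 to 2339 RPKM and 1124 to 1822 RPKM. The 4 neuron genes overlapped between the classes, at 81.5 to 118 RPKM in the 5 and 52.5 to 151 RPKM in the 11. So did the 5 sperm genes, at 79.5 to 158 and 111 to 341 RPKM. The 5 libraries also had higher mean sums over 3 of the mutated genes, with a summed hrde-1 level of 525 ± 154 RPKM against 378 ± 87.5 in the other 11 (SD), a met-2 level of 261 ± 130 against 163 ± 70.5, and a set-25 level of 159 ± 51.4 against 102 ± 31.5. For hrde-1 and met-2 the gap between the means was smaller than the larger SD, and the sums were not rescaled for table total. For set-32 the sums were 60.9 ± 16.0 and 54.4 ± 16.5 RPKM. With this class of libraries as a further term of the limma fit, the counts of called bins in the 4 genes' own mutants were the same as those given below. Over all 25407 tested bins limma then called 456 lower for hrde-1(tm1200), 577 for met-2 set-25, 244 for set-32(ok1457) and 37 for set-32(red11). As the libraries come from whole animals, fewer cells of a type and less small RNA per cell cannot be told apart.

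Per kilobase of exon, hrde-1 had the highest small RNA level of the 4 genes in 16 of 16 libraries. The sums take whole bins, so small RNA of neighbouring genes in shared bins of hrde-1, met-2 and set-25 is counted in. The set-25 bin of exons 4 and 5 also holds 1 annotated piRNA gene. In libraries without a mutation of the gene itself, the level per kilobase of exon was 131 ± 34.2 RPKM for hrde-1, 57.4 ± 17.8 for met-2, 48.9 ± 14.2 for set-25 (SD, n = 12 each) and 35.7 ± 10.3 for set-32 (n = 8). Only the step from hrde-1 to met-2 exceeded the spread between libraries, while neighbours in the order met-2, set-25 and set-32 differed by less than the larger SD of the pair. The order hrde-1, met-2, set-25, set-32 held in 6 libraries, and in 5 it was hrde-1, set-25, met-2, set-32. In all 4 met-2 set-25 libraries met-2 came last, after set-32 and set-25.

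**Figure D1:**
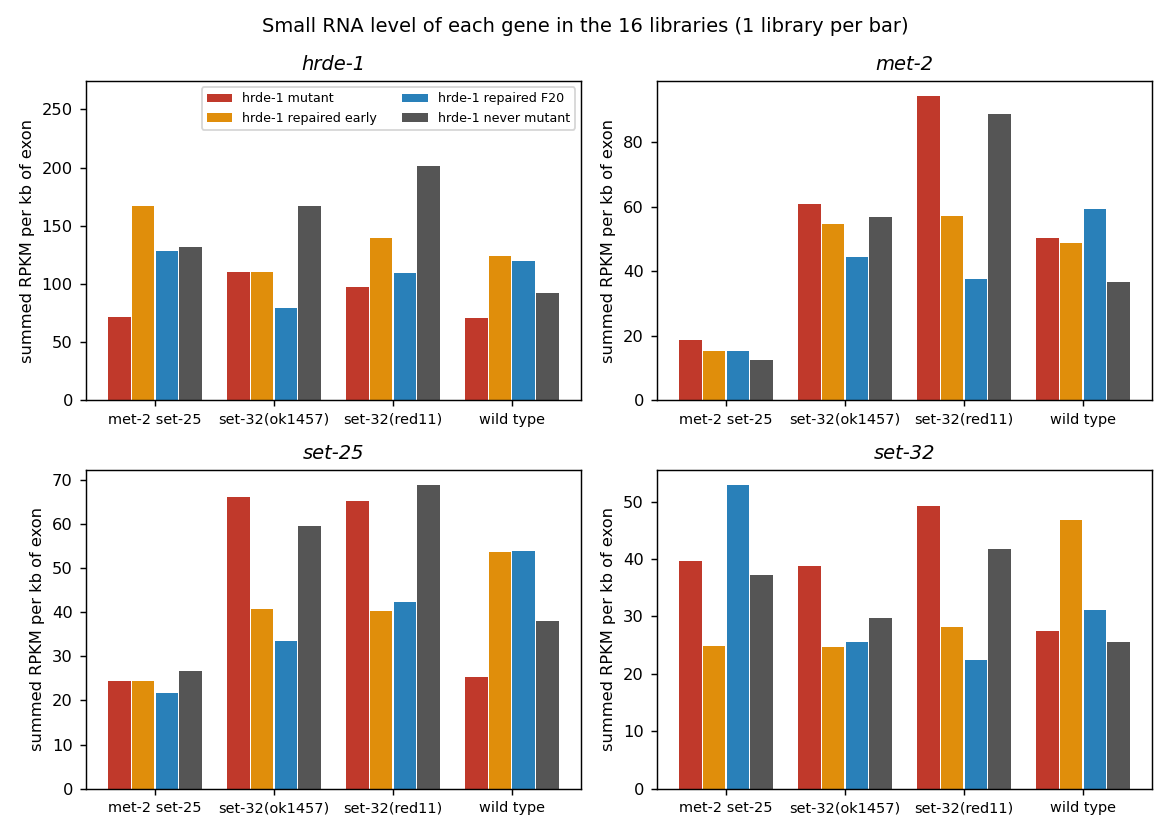
Small RNA level of each gene, as RPKM summed over its bins and divided by the kilobases of exon (y axis), in the 16 libraries grouped by background (x axis) and coloured by the state of hrde-1, 1 library per bar. In the met-2 set-25 background the 4 met-2 bars are the lowest of the 16, and hrde-1 is the highest gene in each library.

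Small RNA over hrde-1 was spread over the whole transcript in hrde-1(tm1200) libraries and no bin of the gene was empty in them. The peak of the gene was the bin of exons 3 to 5, III:4174001-4175000, which codes for residues 353 to 654. It held 92.7 RPKM in met-2 set-25 hrde-1(tm1200), 177 in set-32(ok1457); hrde-1(tm1200), 137 in set-32(red11); hrde-1(tm1200) and 91.7 in hrde-1(tm1200), against a lowest value of 82.1, a median of 196 and a highest value of 300 RPKM in the 12 libraries without the mutation. The groups overlapped, although 3 of the 4 backgrounds had repaired animals above their mutant in this bin at both times. The exception was set-32(ok1457), where the repaired libraries held 96.4 RPKM at F8 and 82.1 at F20, below the 177 of its hrde-1(tm1200) library.

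The other bins of hrde-1, apart from that of the first exon, looked alike. Exons 2 and 3, III:4175001-4176000, held 57.5, 72.4, 76.0 and 55.0 RPKM in hrde-1(tm1200) libraries of the met-2 set-25, set-32(ok1457), set-32(red11) and wild-type backgrounds, against 44.1 to 179 (median 102) without the mutation. The carriers occupied the lower part of that range, and the lowest library of all was met-2 set-25 F5. Means were 70.6 ± 13.1 against 99.1 ± 34.8 RPKM over exons 5 and 6 and 35.4 ± 10.1 against 55.5 ± 16.3 over exons 6 and 7 (SD, n = 4 and 12), the last a bin shared with the gene C16C10.4.

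In the limma fit the 4 bins that hold all but the first exon had negative log2 differences in hrde-1(tm1200), of −0.62 ± 0.26 (SE) over exons 6 and 7, −0.43 ± 0.26 over exons 5 and 6, −0.57 ± 0.34 over exons 3 to 5 and −0.62 ± 0.28 over exons 2 and 3. The adjusted p of these limma values ran from 0.372 to 0.548. The first exon, in a bin shared with C16C10.13, had a log2 difference of 0.72 ± 0.41 (limma, adjusted p = 0.523), with 12.7 ± 4.45 RPKM in hrde-1(tm1200) and 8.62 ± 6.23 without it. Of the 5 bins, 0 passed the threshold of an adjusted p under 0.05, and 2 had an unadjusted p under 0.05, both lower. Over all bins tested, limma called 0.484% lower in this comparison, 4.79% were lower at an unadjusted p under 0.05, and the median log2 difference was 0.18. The 10 flanking bins, 5 on each side, had a median log2 difference of 0.34, and 0 of them was called lower or higher. Among the SG0717 libraries, whose only carriers were those of the set-32 alleles, the 5 differences ran from −0.66 to 0.90. Without the 5 libraries of high table total the peak bin had −0.98 (limma, adjusted p = 0.0927).

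Set against the animals of the same background that had never been mutant, hrde-1(tm1200) libraries had log2 differences of −0.95 ± 0.32 over exons 6 and 7 and −0.82 ± 0.34 over exons 2 and 3 (limma, adjusted p = 0.249 and 0.433). Of the 5 bins 0 was called, where limma called 0.354% of all bins lower. At an unadjusted p under 0.05, 2 were lower, as were 5.3% of all bins. Within backgrounds, the hrde-1(tm1200) library was the lowest of the 4 states in 3 of 4 backgrounds over exons 5 and 6 and over exons 2 and 3, and in 2 of 4 over exons 6 and 7 and exons 3 to 5. Over the first exon it was lowest in 0 of 4. In the wild-type background the peak bin held 91.7 RPKM in hrde-1(tm1200), 197 in hrde-1(+R) F5, 195 in hrde-1(+R) F20 and 88.5 in N2. The repaired libraries of that background thus stood above both the mutant and N2 in this bin. They were also the only SG0717 libraries of that background, so state and prefix cannot be told apart there.

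The division of hrde-1 small RNA along the gene differed with the mutation by less than the larger SD in 4 of the 5 bins. The exon 3 to 5 bin held 39.7 ± 4.06% of the gene's summed RPKM in hrde-1(tm1200) and 40.7 ± 8.56% in the other libraries, and the exon 2 and 3 bin 21.4 ± 1.90% and 23.8 ± 8.43% (SD, n = 4 and 12). Over exons 5 and 6 the shares ran from 21.9 to 24.3% in hrde-1(tm1200) and from 16.7 to 28.2% in the others, and over exons 6 and 7 they were 11.4 ± 0.852% and 12.4 ± 3.86%. The exception was the bin of the first exon, with 4.47 ± 2.34% in hrde-1(tm1200) and 1.99 ± 1.64% in the others, where the ranges overlapped (2.19 to 7.41% against 0.345 to 6.22%). The summed level over the 5 bins was 309 ± 69.4 RPKM in hrde-1(tm1200) and 462 ± 121 RPKM in the others, and the ranges overlapped (248 to 390 against 280 to 711).

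**Figure D2:**
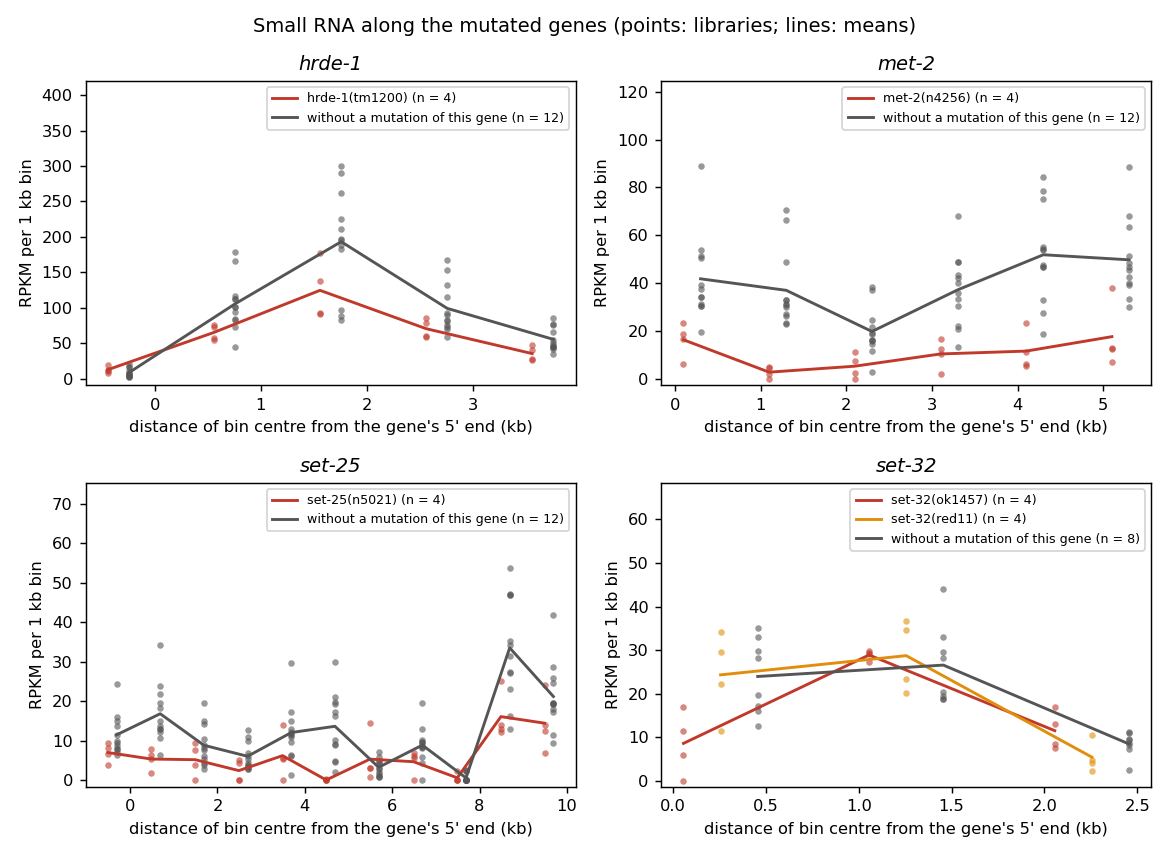
RPKM per 1 kb bin (y axis) along each gene from its 5′ end (x axis, kilobases of the bin centre), with a point for each library and lines for the means of libraries carrying a mutation of that gene and of those without it, groups being set slightly apart along x. The met-2 carriers fall to a mean of 2.74 RPKM over exons 3 and 4 and the set-25 carriers to 0.103 RPKM over exon 6, while the hrde-1(tm1200) profile keeps its peak.

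The met-2 gene lost small RNA along its whole length in the libraries with met-2(n4256), and most deeply over exons 3 and 4. That bin, III:8376001-8377000, codes for residues 196 to 506 and holds no other annotated gene. It held 4.69 RPKM in met-2 set-25 hrde-1(tm1200), 0 in F5, 4.39 in F20 and 1.86 in met-2 set-25, against a lowest value of 22.8, a median of 31.2 and a highest value of 70.6 RPKM in the 12 libraries with wild-type met-2. The groups did not overlap. The carriers averaged 2.74 ± 2.22 and the others 37.0 ± 16.2 RPKM (SD), and the limma difference was −3.53 ± 0.38 on the log2 scale (adjusted p = 1.3e-04). The bin passed the filter of a mean of at least 5 RPKM through the libraries without the mutation, and with no filter its limma adjusted p was 0.00447. Among the SG0717 libraries, whose only carriers were F5 and F20, the difference was −3.77 (limma, adjusted p = 0.00365). Without the 5 libraries of high table total it was −2.54 (limma, adjusted p = 0.00977).

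Few reads lay behind the low values of this bin. The 4 carriers held 0 to 2.5 reads each, 5.5 in sum, and the 12 others 177.9 in sum, an 11.3-fold lower rate in the carriers once library depth was accounted for. Reads are estimated by dividing RPKM by the worth of a single read, and the quotients need not be whole. In F5, listed at 0, 3 reads would be worth 18.9 RPKM, still under the lowest library with wild-type met-2.

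The other 5 bins of met-2 were also called lower, with smaller differences. Exons 1 to 3, in a bin shared with lmbr-1, held 16.3 ± 7.23 RPKM in met-2(n4256) and 41.8 ± 17.9 in the others, a limma log2 difference of −1.34 ± 0.31 (adjusted p = 0.0306). Exons 4 and 5, the lowest bin of the gene in the other libraries, held 5.24 ± 5.01 against 19.8 ± 9.96 RPKM (−2.08 ± 0.52, limma adjusted p = 0.048), and exons 5 and 6 held 10.4 ± 6.17 against 37.2 ± 14.9 (−1.91 ± 0.39, limma adjusted p = 0.016). Inside the range of the others lay 1 carrier over exons 1 to 3, 2 over exons 4 and 5 and 1 over exons 5 and 6.

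The highest bin of met-2 was that of exons 6 to 8, III:8379001-8380000, which codes for residues 905 to 1205. It held 23.5 RPKM in met-2 set-25 hrde-1(tm1200), 6.30 in F5, 5.27 in F20 and 11.2 in met-2 set-25, against 18.9 to 84.4 RPKM (median 50.6) in the others. The hrde-1(tm1200) derivative was the only carrier inside the range of the others, above N2. The limma difference was −2.18 ± 0.37 on the log2 scale (adjusted p = 0.00502). Exons 8 and 9, in a bin shared with R05D3.12, held 17.6 ± 13.7 RPKM with the mutation and 49.7 ± 16.5 without it (−1.64 ± 0.33, limma adjusted p = 0.0155), and the only carrier within the range of the others was F5, at 37.8 RPKM.

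In all, 6 of 6 met-2 bins were called lower by limma in the met-2 set-25 background, where 1.54% of all bins tested were called lower and the median log2 difference of all bins was 0.03. The median over the 6 bins was −1.99. The number of called bins was 2 without the met-2 set-25 library, 3 without that of met-2 set-25 hrde-1(tm1200), 2 among the SG0717 libraries, 2 without the 5 libraries of high table total and 1 with no filter on low bins. In the same order limma called 212, 362, 428, 195 and 144 of all bins lower, out of 25407 tested and 99988 with no filter. Exons 3 and 4 of met-2 were among the called bins in each of these settings. Of the 10 flanking bins 5 were high enough to test, with log2 differences of −0.05 to 0.51, and 0 was called. The bin just upstream of the gene held 98.3 ± 20.8 RPKM in met-2 set-25 libraries and 86.5 ± 37.9 in the others.

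Within met-2 the carriers also had a smaller share of their small RNA over exons 3 and 4. That bin held 4.16 ± 3.14% of the gene's summed RPKM in the carriers and 15.4 ± 3.19% in the others (SD, n = 4 and 12), and these shares did not overlap (at most 7.03% against at least 11.2%), though shares were not tested. The share of exons 4 and 5 was 8.80 ± 8.61% in the carriers and 8.73 ± 4.31% in the others, and that of exons 5 and 6 was 15.4 ± 8.11% and 15.4 ± 3.48%. The gene's sum was 63.8 ± 10.4 RPKM in the carriers and 237 ± 73.7 RPKM in the others, without overlap (52.1 to 77.4 against 151 to 390).

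**Figure D3:**
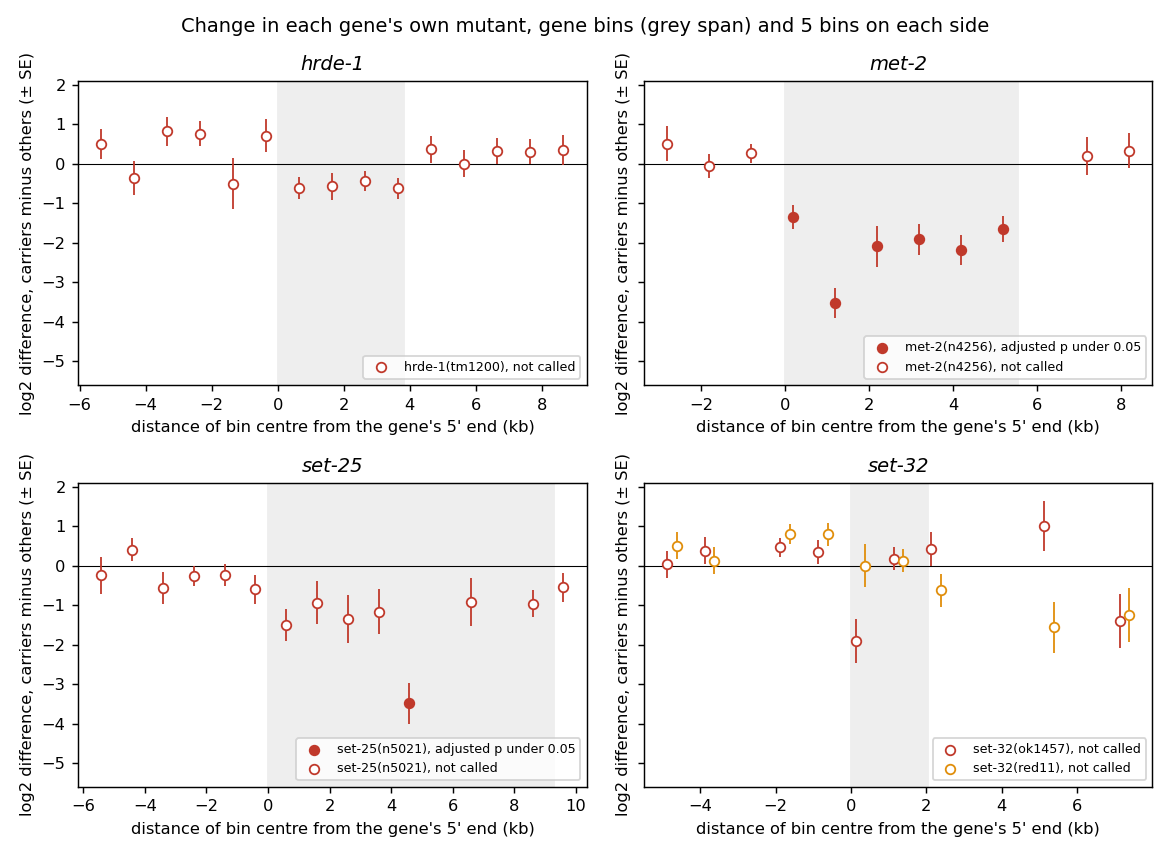
The limma log2 difference (y axis, ± SE) between libraries with a mutation of the gene and those without it, for the tested bins of each gene and the 5 bins on each side, placed by distance of the bin centre from the gene's 5′ end (x axis, kilobases). The grey span marks the gene, filled points passed an adjusted p under 0.05, and the lowest points are −3.53 over exons 3 and 4 of met-2 and −3.48 over exon 6 of set-25.

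In set-25 the bin of exon 6 lost nearly all its small RNA in set-25(n5021) libraries, and it was the only called bin of the gene. The bin of exon 6, III:13288001-13289000, codes for residues 490 to 635 and holds no other annotated gene. It was listed at 0 RPKM in met-2 set-25 hrde-1(tm1200), 0 in F5, 0.14 in F20 and 0.27 in met-2 set-25, against a lowest value of 2.16, a median of 13.3 and a highest value of 30.1 RPKM in the 12 libraries with wild-type set-25. The groups did not overlap, and the lowest library without the mutation was hrde-1(tm1200). The limma difference was −3.48 ± 0.52 on the log2 scale (adjusted p = 0.0021). The bin passed the filter of a mean of at least 5 RPKM through the libraries without the mutation, and with no filter on low bins its limma adjusted p was 0.0194.

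The carriers held 0.2 reads in this bin in sum and the other 12 libraries 60.7. Taking 3 reads over the 4 carriers as the floor, set-25(n5021) libraries were at least 7.03-fold lower. The F5 library alone cannot show the loss, since its floor of 18.9 RPKM lies above the median of the others. The floors of the other 3 carriers, 5.28 to 7.05 RPKM, lie below that median and above the lowest 3 of the other libraries. Without the 5 libraries of high table total the limma difference was −2.55, with an adjusted p of 0.111, and among the SG0717 libraries it was −3.30, with an adjusted p of 0.0139. The only carriers among the SG0717 libraries were F5 and F20.

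The other bins of set-25 did not pass the test. The bin with the most small RNA, that of the last exon, III:13284001-13285000, held 14.1 RPKM in met-2 set-25 hrde-1(tm1200), 25.2 in F5, 12.3 in F20 and 13.03 in met-2 set-25, against 13.01 to 53.8 RPKM (median 32.9) without the mutation. The groups overlapped, and the limma difference was −0.96 ± 0.35 (adjusted p = 0.215). Exons 1 and 2, III:13292001-13293000, held 5.47, 6.32, 1.76 and 8.07 RPKM in the same order of carriers, against 6.50 to 34.3 (median 14.4) in the others. There 3 of 4 carriers lay below the range of the others, and the limma difference was −1.50 ± 0.40 (adjusted p = 0.0657). Of the bins on either side of exon 6, that of exons 4 and 5 held 6.27 ± 5.82 against 12.1 ± 6.98 RPKM (−1.17 ± 0.57, limma adjusted p = 0.42) and that of exon 7 held 5.38 ± 6.14 against 3.31 ± 2.14, too low to test.

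The remaining set-25 bins ran at low levels. The start of exon 1 held 7.06 ± 2.41 RPKM with set-25(n5021) and 11.5 ± 5.15 without it, and exon 3 held 5.25 ± 4.19 and 8.90 ± 5.14. The intronic bin between exons 3 and 4 held 2.49 ± 2.76 and 6.10 ± 3.37 RPKM and, like exon 6, passed the filter only through the libraries without the mutation. The bin of the end of exon 7, shared with F56A8.8, held 4.73 ± 3.21 and 8.94 ± 4.71 RPKM, and the end of exon 8, shared with unc-64, held 14.5 ± 7.16 and 21.2 ± 8.46. The intronic bin between exons 7 and 8, which also overlaps F56A8.8, held 0.653 ± 1.23 and 0.637 ± 1.13 RPKM and was not tested.

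Of the 11 set-25 bins 9 were tested and 1 was called lower by limma, against 1.54% of all bins in this comparison. The 9 differences ran from −3.48 to −0.55, and 4 had an unadjusted p under 0.05, where 6.81% of all bins were lower at that level. However, 3 of the 9 bins had a mean under 5 RPKM in the carriers and passed the filter through the other libraries. The 5 tested flanking bins had a median of −0.24, and 0 was called. Exon 6 held 0.148 ± 0.179% of the gene's summed RPKM in the carriers and 9.57 ± 4.68% in the others, while the last-exon bin held 23.8 ± 8.70% and 24.0 ± 4.36%. The gene's sum was 68.0 ± 5.82 RPKM in set-25(n5021) libraries and 137 ± 39.7 in the others, and it overlapped at 1 library, hrde-1(tm1200), which held 71.0 RPKM.

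**Figure D4:**
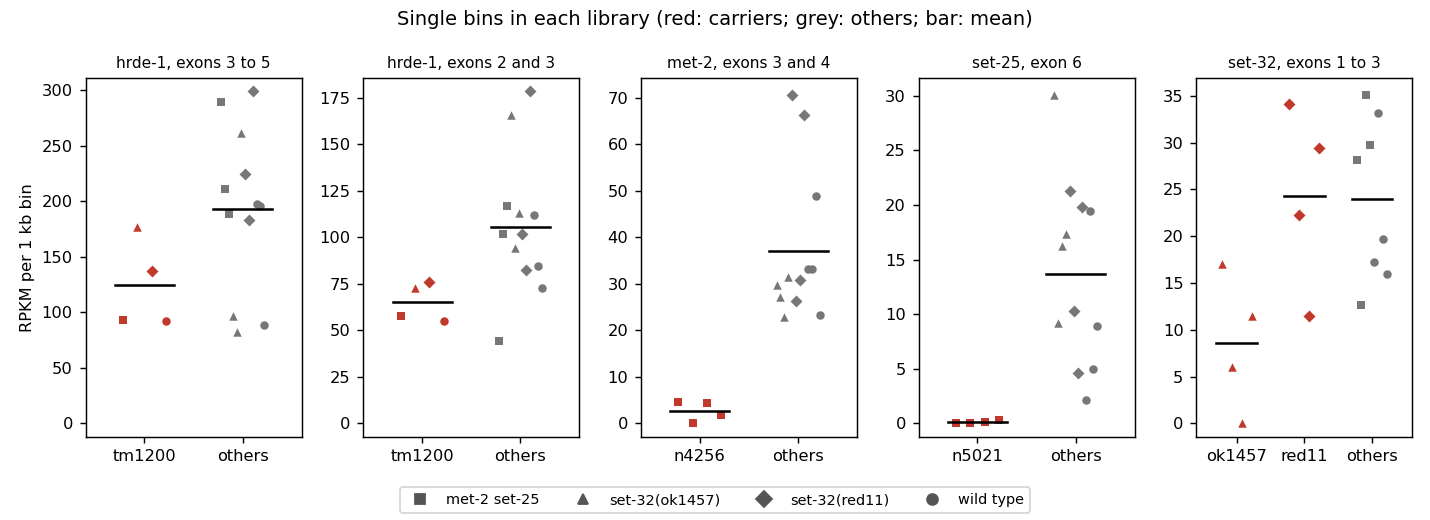
RPKM per 1 kb bin (y axis) in each library for 5 single bins, with carriers of the gene's own mutation in red and the other libraries in grey (x axis, by allele), the marker shape giving the background and the bar the mean. Carriers and others are apart over exons 3 and 4 of met-2 and exon 6 of set-25 and overlap in the hrde-1 and set-32 bins.

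In set-32 the first bin, I:9519001-9520000, which holds exons 1 to 3 and codes for residues 1 to 217, had its lowest values with set-32(ok1457). With set-32(ok1457) it held 17.04 RPKM in the hrde-1(tm1200) library, 6.03 at F8, 0 at F20 and 11.4 in set-32(ok1457) itself. With set-32(red11) it held 34.1 RPKM in the hrde-1(tm1200) library, 22.3 at F5, 11.4 at F20 and 29.5 in set-32(red11) itself. The 8 libraries with wild-type set-32 held 12.6 to 35.1 RPKM (median 23.9). All set-32(ok1457) libraries lay in or below the lower part of that range, 3 of 4 below it, and set-32(red11) libraries were spread through it with 1 below.

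The limma difference from the 2 backgrounds with wild-type set-32 was −1.91 ± 0.55 on the log2 scale for set-32(ok1457) (adjusted p = 0.126) and 0.00 ± 0.55 for set-32(red11) (adjusted p = 1). Set against each other, set-32(ok1457) and set-32(red11) differed by −1.90 ± 0.63, with an unadjusted p of 0.00871 and a limma adjusted p of 0.462, so the alleles' difference in this bin failed the correction. The set-32(ok1457) libraries held 0 to 4 reads each in this bin, against 2 to 19.9 in the 8 libraries with wild-type set-32. At F20, listed at 0, 3 reads would be worth 9.75 RPKM. Among the SG0717 libraries the set-32(ok1457) difference was −2.80 (limma, adjusted p = 0.0487), and without the 5 libraries of high table total it was −3.86 (limma, adjusted p = 0.00587). The set-32(ok1457) libraries left without the 5 were only F8 and F20, the lowest of that allele in this bin. With any 1 of the 16 libraries left out, the difference ran from −2.35 to −1.08 (limma, adjusted p from 0.0904 to 0.402). For set-32(red11) the SG0717 libraries gave −0.90 and the fit without the 5 gave −1.18 (limma, adjusted p = 0.647 and 0.62).

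The middle bin of set-32, exons 3 to 6, carried the most small RNA and did not follow the first. It held 29.8, 27.3, 29.3 and 29.1 RPKM in the hrde-1(tm1200), F8, F20 and never mutant libraries of set-32(ok1457), and 36.6, 20.3, 23.4 and 34.7 RPKM in the hrde-1(tm1200), F5, F20 and never mutant libraries of set-32(red11). The 8 libraries with wild-type set-32 held 18.9 to 44.1 RPKM (median 24.3), and both alleles lay inside that range. The limma differences were 0.18 ± 0.30 for set-32(ok1457) and 0.13 ± 0.30 for set-32(red11) (adjusted p = 0.86 and 0.876). The last bin, exons 6 and 7, held 17.04, 7.54, 13.01 and 8.58 RPKM with set-32(ok1457) and 10.7, 4.05, 2.29 and 4.89 RPKM with set-32(red11) in the same order, and its limma differences were 0.42 ± 0.42 and −0.62 ± 0.42 (adjusted p = 0.74 and 0.541). Between the alleles this bin differed by 1.05 on the log2 scale, higher with set-32(ok1457), at an unadjusted limma p under 0.05. It was not called either.

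Of the 3 set-32 bins, 0 was called for set-32(ok1457), where limma called 0.264% of all bins lower, and 0 for set-32(red11), where it called 0.0157% lower. At an unadjusted p under 0.05 there was 1 lower bin, that of exons 1 to 3, for set-32(ok1457) and 0 for set-32(red11). Over all bins 6.05% and 2.99% were lower at that level. The flanking bins, 6 tested for each allele, had median log2 differences of 0.36 and 0.32, and 0 was called. The lowest of them were −1.40 for set-32(ok1457) and −1.56 for set-32(red11), beside −1.91 and 0.00 over exons 1 to 3. The bin I:9526001-9527000 held 2.88 ± 1.97 RPKM with set-32(ok1457) and 2.84 ± 1.42 with set-32(red11), against 9.87 ± 5.67 in the 8 libraries with wild-type set-32, with limma differences of −1.40 ± 0.69 and −1.25 ± 0.69 (adjusted p = 0.425 and 0.471). It passed the filter of a mean of at least 5 RPKM through the libraries with wild-type set-32. The bin of −1.56, I:9524001-9525000, held 3.80 ± 4.54 RPKM with set-32(red11) and 13.1 ± 8.31 with wild-type set-32. It too passed the filter through libraries without set-32(red11). As a share of the gene's summed RPKM, exons 1 to 3 held 16.2 ± 11.9% with set-32(ok1457), 40.8 ± 7.18% with set-32(red11) (SD, n = 4 each) and 39.9 ± 5.17% in the 8 libraries with wild-type set-32. The set-32(ok1457) shares reached 26.7% at most, below the lowest share of the other 8, 30.7%, and the shares were not tested. The gene's sum differed by less than the spread between libraries, at 49.1 ± 10.5 RPKM with set-32(ok1457), 58.5 ± 20.3 with set-32(red11) and 59.0 ± 17.1 with wild-type set-32.

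**Figure D5:**
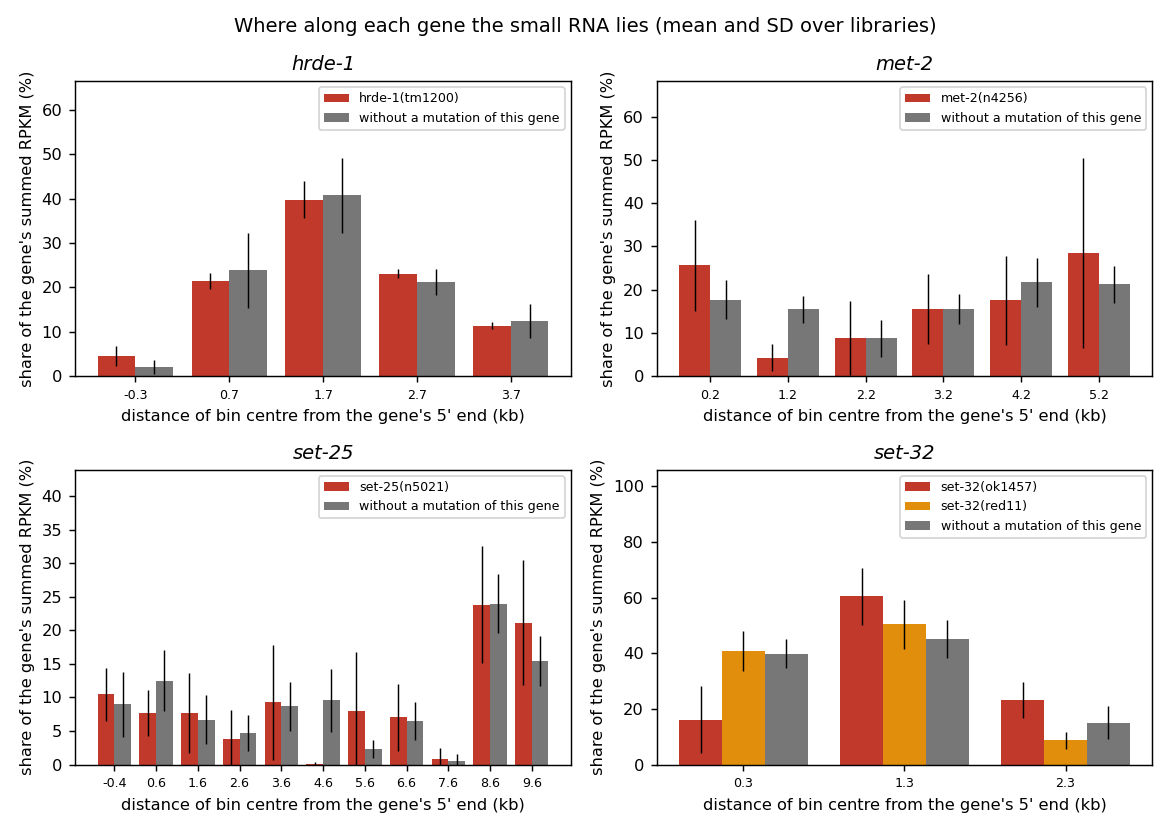
Share of each gene's summed RPKM in each of its bins (y axis, percent, mean with SD over libraries, the lower end stopped at 0), ordered by distance of the bin centre from the gene's 5′ end (x axis, kilobases), for libraries with a mutation of the gene and those without. Shares in carriers are lower over exons 3 and 4 of met-2 (4.16% against 15.4%), exon 6 of set-25 (0.148% against 9.57%) and exons 1 to 3 of set-32 for set-32(ok1457) (16.2% against 39.9%), and the hrde-1 shares differ most in the first-exon bin (4.47% against 1.99%).

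Small RNA over the 4 genes was then read in the comparisons that do not mutate them. In hrde-1(tm1200), where limma called 0.559% of all bins higher and 0.484% lower, 0 of the 18 tested bins of met-2, set-25 and set-32 were called and 0 had an unadjusted p under 0.05, with median log2 differences of 0.58 for met-2, 0.05 for set-25 and 0.65 for set-32. At that unadjusted level 6.7% of all bins were higher and 4.79% lower. In met-2 set-25, where 0.842% of all bins were called higher, 0 of the 8 bins of hrde-1 and set-32 were called and 0 had an unadjusted p under 0.05, with medians of 0.10 and 0.38. Of all bins 5.81% were higher and 6.81% lower there at the unadjusted level. Small RNA of hrde-1 in the met-2 set-25 background summed to 441 ± 140 RPKM and in the wild-type background to 359 ± 89.0, a difference within the spread between libraries.

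The libraries set against each set-32 allele include the 4 of met-2 set-25, which are themselves low over met-2 and set-25. With set-32(red11), 0 of the 20 bins of hrde-1, met-2 and set-25 were called by limma, where 0.102% of all bins were called higher, while at an unadjusted p under 0.05 there were 9 higher and 1 lower. At that level 9.06% of all bins were higher and 2.99% lower. With set-32(ok1457) 1 of the 20 bins was called higher, where 0.799% of all bins were. At an unadjusted p under 0.05 there were 5 higher and 0 lower, beside 6.32% and 6.05% of all bins. The met-2 bins had median log2 differences of 1.36 with set-32(red11) (lowest limma adjusted p = 0.052) and 1.15 with set-32(ok1457) (0.0747). The called bin was exon 6 of set-25 (2.60 ± 0.56 on the log2 scale, limma adjusted p = 0.0347). Against the wild-type background alone, 0 bins of met-2 and set-25 were called for either allele (over all bins limma called 0.264% higher and 0.0394% lower for set-32(ok1457), and 0 for set-32(red11)), and the median differences for set-32(ok1457) were −0.05 over met-2 and 0.04 over set-25. For set-32(red11) they were 0.49 and 0.44, with a median of 0.29 over all bins.

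In animals repaired for hrde-1, the bins of the 4 genes stayed short of the threshold. Early repaired animals set against never mutant ones had median log2 differences of −0.26 over hrde-1, −0.21 over met-2, −0.35 over set-25 and −0.04 over set-32, and F20 animals −0.44, −0.29, −0.22 and −0.49. By limma 0 of 23 tested bins were called in either comparison, where 0.00787% of all bins were called higher and 0 lower. Before adjustment, limma gave p under 0.05 for 2 of the 23 bins at the early time, both lower, and for 0 at F20. Of all bins, 5.19% reached that level on the lower side and 1.56% on the higher side at the early time. At F20 the shares were 3.89% and 1.22%. The median of all bins was −0.17 in both comparisons. These comparisons share the never mutant libraries with that of hrde-1(tm1200) against never mutant.

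Other genes of the pathway were read through a list of 79 names of nuclear RNAi, siRNA amplification and histone methylation factors, among them nrde-2, ego-1, mut-16, prg-1 and mes-2, which leaves out the 4 mutated genes. In the annotation 76 names matched, covering 446 bins, of which 295 bins of 66 genes were tested. By limma 0 of these bins were called in the comparisons of hrde-1(tm1200), met-2 set-25, set-32(ok1457) or set-32(red11), while at an unadjusted p under 0.05 there were 1 lower and 22 higher, 3 lower and 6 higher, 11 lower and 4 higher, and 2 lower and 37 higher in that order. The higher bins are 7.46%, 2.03%, 1.36% and 12.5% of those tested in the same order, beside 6.7%, 5.81%, 6.32% and 9.06% over all bins. The lower bins are 0.339%, 1.02%, 3.73% and 0.678%, beside 4.79%, 6.81%, 6.05% and 2.99%. The median log2 differences of the listed bins were 0.28, 0.00, 0.07 and 0.40, beside 0.18, 0.03, 0.01 and 0.25 over all bins.

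The genes whose summed small RNA varied most like that of a mutated gene over the 16 libraries were taken from 7795 protein-coding genes, by the correlation of log2 sums, as a description. For hrde-1 they were ZC404.16 (r = 0.91), bath-24 (0.90) and bath-15 (0.90), with a median r of 0.17 over all genes. For met-2 they were F13E9.11 (0.93), F11F1.1 (0.92) and fbxb-56 (0.90), and for set-25 fbxb-56 (0.89), daf-16 (0.88) and K09H11.11 (0.87). For set-32 they were dao-5 (0.87), pch-2 (0.86) and wdr-37 (0.84). Among the 4 genes, met-2 and set-25, which are mutated in the same 4 libraries, had r = 0.84, and hrde-1 and set-25 had 0.34. All these points share their libraries, and with them depth and table total.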

How the data were processed

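Small RNA of 16 libraries was analysed from a table of RPKM per 1000 bp bin that the authors deposited. The submitters' processing notes name Bowtie 0.12.7. The genome build, what the RPKM scaling counted and how reads with several matches were treated were not stated in these sources. Another 27 library columns matched no sample and were not used. Read strand and length are not separated, so siRNAs and mRNA fragments add up.

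Genes and exons came from the WBcel235 annotation (Ensembl). Tests used log2(RPKM + 1) and a filter of a mean of 5 RPKM or more over the libraries, which 25407 bins passed, so differences understate changes of low bins. Of the 25 bins 23 passed. One additive limma 3.58.1 fit (R 4.3.3, lmFit, eBayes with a trend) of background and hrde-1 state used all 16 libraries, two-sided, with Benjamini-Hochberg adjustment over all tested bins and calls at an adjusted p under 0.05. hrde-1(tm1200) was set against the mean of the other 3 states, met-2 set-25 against the other 3 backgrounds, and each set-32 allele against wild type and met-2 set-25. P-values measure the spread between genotypes, not between cultures. The fit was tested on simulated data. The 4 genes, the flanks, the pathway list and the marker lists were chosen with earlier results of these data known. Values are given for all bins of the 4 genes, and named similar genes are the 3 with the highest correlation among genes with a mean sum of at least 20 RPKM. Sensitivity to pseudocount, filter, scaling, block, trend and libraries was computed. Read numbers are RPKM divided by the most frequent value of a library between 1 and 20 RPKM, taken as the worth of a single read. Floors of 3 reads rest on this estimate and cover counting error only.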

Additional observations from a re-analysis of the deposited data

Results flagged for a closer look

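The last-exon bin of set-25, III:13284001-13285000, held 25.2 RPKM in F5 animals of met-2 set-25, against 12.3 to 14.1 RPKM in the other 3 set-25(n5021) libraries. The gap to the nearest library was 0.861 of the group's range, above the 95% critical value of Dixon's test for 4 values. The value stands for 4 reads in the shallowest library. Of 26 groups of 4 libraries tested in this way 1 was flagged, and chance flags about 1 in 20.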

How the results depend on the processing

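Exons 3 and 4 of met-2 passed the threshold under 10 of 10 alternative settings and without any 1 of the 16 libraries (log2 −4.22 to −2.41 and −3.83 to −3.08). Exon 6 of set-25 passed under 8 of 9 and without any 1 library. The met-2 count of 6 lower bins became 1 with no filter on low bins, 2 in the SG0717 libraries alone, 2 without the 5 libraries of high table total (chosen after seeing the data) and 2 to 6 with 1 library left out. The set-25 count of 1 became 0 at a mean of at least 20 RPKM, where 1 bin was left to test, 2 with values centred on library medians, 0 without the 5 libraries and 1 to 2 with 1 left out. In this comparison limma called 391 of 25407 bins lower in the main fit and 144 of 99988 with no filter. It called 428 lower in the SG0717 libraries, 195 without the 5, 289 of 9053 at a mean of at least 20 RPKM, 479 when centred and 174 to 440 with 1 left out. For set-32(ok1457) the count of 0 became 1 in the SG0717 libraries and 1 without the 5, and stayed 0 to 0 with 1 left out, as did those of set-32(red11) and hrde-1. Over all 25407 bins limma called 67 lower for set-32(ok1457) in the main fit, 376 in the SG0717 libraries and 518 without the 5. The 1 call in bins of genes not mutated in the comparison became 0 against wild type alone (added after seeing the data). The cause of these shifts was not tested.

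Signs turned in 3 bins, none of them past the threshold in the comparison concerned. Over exons 1 to 3 of set-32, set-32(red11) gave 0.00 with a pseudocount of 5, −1.18 without the 5 libraries, −0.90 in SG0717, 0.63 against all 3 other backgrounds and −0.20 to 0.28 with 1 library left out. Over exons 3 to 6 it gave −0.04 centred, −0.29 in SG0717, −0.71 without the 5 and −0.05 to 0.32 with 1 left out, and set-32(ok1457) gave −0.24 in SG0717 and −0.35 without the 5. Exons 4 and 5 of set-25 gave 0.21 without the 5. Background and hrde-1 state are blocks for each other in the fit. Without that block the met-2 count was 4, while 264 of all 25407 bins were called lower in that comparison. The labels give no replicate numbers to pair libraries by. As a read was worth 1.45 to 6.30 RPKM, losses in bins of a few RPKM were not detectable.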
